A study of Rattus norvegicus with 12 samples.

Results

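The heat shock proteins of the cytosol and of mitochondria were followed here through 10 genes, chosen by symbol from a count table of 30045 rows: the small heat shock proteins Hspb1, Hspb8 and Cryab, the HSP70 system of Hspa8, Hsph1 and Dnajb1, the HSP90 paralogs Hsp90aa1 and Hsp90ab1, and the mitochondrial chaperonin pair Hspd1 and Hspe1. All 10 matched a row and all 10 passed the filter on low counts. The cells were theca-interstitial cells, which make androgens in the wall and stroma of ovarian follicles, isolated from wild type female Sprague Dawley rats on postnatal day 30 and grown on human fibronectin. Of the 12 cultures, 4 received vehicle (control), 4 received rat interleukin-1β (IL-1β), an inflammatory cytokine, and 4 received lipopolysaccharide (LPS), a component of the bacterial outer membrane, all for 48 h. The labels write 1 µg/ml after naming both agents, which leaves unclear whether it is also the IL-1β dose. They do not say whether the 4 cultures of a group came from separate animals or isolations, so a p-value here reflects the spread of these cultures alone, which may be technical.

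Heat shock proteins are chaperones, proteins that keep other proteins folded or hold them until they can be refolded. The small heat shock proteins bind unfolding proteins without using ATP, the HSP70 and HSP90 machines fold clients in cycles of ATP hydrolysis with the help of cochaperones, and the chaperonin of the mitochondrial matrix encloses a client in a barrel closed by a lid. Many of these genes are switched on by heat shock factor 1 (HSF1), which binds inverted repeats of the bases GAA near their start sites, and in steroid-producing cells HSP90 is also known for holding steroid receptors ready for hormone.

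Promoter windows, 250 bases before to 50 bases after a start site, were read from RefSeq (build GRCr8) for the 8 members found there. They were searched on both strands for the heat shock element, as 8-base motifs of 2 repeats (GAANNTTC or TTCNNGAA) and as 13-base motifs of 3 repeats, in which both 8-base motifs are joined through a shared TTC or a shared GAA. A 13-base motif stood in the windows of 4 of the 8 members and in 0.798% of 33469 windows of the same length, and an 8-base motif in 15.9% of those windows. The elements are shown because the members differ in whether their window held an exact match. Each line runs 5′ to 3′ on the gene's strand, with the joined repeats in capitals.
Hspa8, distal: gcgagcgtGAAAGTTCCAGAAcgctgcggt
Hspa8, proximal: cggaacccTTCTGGAAGGTTCtaagacagg
Hsph1: gccgcagaTTCTGGAAAGTTCtcctcagta
Hspe1: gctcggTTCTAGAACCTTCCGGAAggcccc
Hspd1: ggggccTTCCGGAAGGTTCTAGAAccgagc

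The Hspa8 elements lie at chr8:50080293-50080322 and chr8:50080451-50080480 on the plus strand, with repeats from -213 to -201 and from -55 to -43 relative to the start site, and the Hsph1 element lies at chr12:10427324-10427353 on the plus strand, with repeats from -36 to -24. The last pair of lines are the same 30 bases, chr9:64084256-64084285, read on the plus strand for Hspe1 and on the minus strand for Hspd1. These genes stand head to head, their windows share 211 bases, and the 18-base run of 4 repeats in them begins 65 bases before the start of Hspe1 and 242 bases before the start used for Hspd1. Hspb1, Hspb8 and Dnajb1 had 8-base motifs only, and no motif was found in the Hsp90ab1 window. The 250 bases before the start of Hspb1, chr12:26432302-26432551 on the minus strand, are shown for contrast, with both GAANNTTC motifs (from -129 and from -109) in capitals.
Hspb1: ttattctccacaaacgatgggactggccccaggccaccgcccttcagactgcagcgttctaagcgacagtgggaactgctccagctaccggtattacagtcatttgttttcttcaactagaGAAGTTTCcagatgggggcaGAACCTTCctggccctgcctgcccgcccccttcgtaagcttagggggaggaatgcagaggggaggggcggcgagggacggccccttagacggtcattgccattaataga

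Total counts per library ran from 20873934 to 32090924, and the 10 members held 0.371% ± 0.00781 of the reads in controls, 0.389% ± 0.00624 under IL-1β and 0.399% ± 0.0112 under LPS (mean ± SD, n = 4 each). Levels are given as CPM, a gene's counts relative to the TMM-scaled total of its library, and they are compared between groups of 1 gene and not between genes, since no transcript lengths were used. Theca markers were detected in every group, although Cyp17a1, the enzyme that makes androgens from progestins, stood at 0.537 ± 0.101 CPM in control cultures. The summed level of 6 theca markers was 202 to 233 CPM in control, 572 to 622 with IL-1β and 431 to 495 with LPS. In control Star made up 127 to 156 CPM of this sum and Nr5a1 68.8 to 73.3. There Cyp11a1 was at 3.29 to 3.90 CPM, Lhcgr at 1.75 to 2.22 and Insl3 at 0.156 to 0.263. Markers of other cell types were present and moved as well. The 10 macrophage markers summed to 104 to 107 CPM in control, 56.9 to 60.1 with IL-1β and 49.97 to 55.9 with LPS. Of these 10, 7 fell and Cd163 rose with IL-1β, and 8 fell and Emr1 rose with LPS. Cd163 was near the floor, with 0 to 3 counts per library in control, 15 to 28 with IL-1β and 0 to 2 with LPS. The 9 endothelial markers summed to 166 to 195, 356 to 405 and 247 to 333 CPM, with 9 higher with IL-1β and 8 with LPS. The 6 granulosa markers summed to 461 to 505, 626 to 784 and 482 to 601 CPM, of which Inha made up 256 to 301, 467 to 597 and 304 to 425 CPM. Of these 6, 3 rose and 2 fell (Inhba and Amh) with IL-1β, and 2 rose and 1 fell (Amh) with LPS. Cyp19a1, higher with both treatments, had only 0 to 8 counts per library in control, 6 to 13 with IL-1β and 5 to 14 with LPS. None of these markers was at 0 throughout a group. Beside these marker counts, 24.7% of all genes tested were called higher and 23.0% lower with IL-1β, and 22.5% and 20.0% with LPS. On the second principal component of all genes tested, LPS replicates 3 and 4 (-19.8 and -16.8) stood apart from LPS replicates 1 and 2 (-8.65 and -9.90), so results with LPS were also computed without replicates 3 and 4.

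The comparisons ask how an inflammatory cytokine and a bacterial stimulus shift transcript levels in these cells. IL-1β left the heat shock proteins with lower Hspb1, Cryab, Hsp90aa1 and Hsph1 and with higher Hspe1, Hspd1, Hsp90ab1 and Hspa8. In all, 4 of 10 members rose and 4 fell at an adjusted p under 0.05 (edgeR quasi-likelihood test, Benjamini-Hochberg over 17330 genes), where 47.7% of all genes tested were called, 24.7% higher and 23.0% lower. With LPS 4 of 10 rose and 3 fell, where 42.5% of all genes were called, 22.5% higher and 20.0% lower. Treated and control libraries did not overlap in 8 members with IL-1β (44.2% of all genes) and in 6 with LPS (38.3%). The median log2 fold change of the members was 0.08 with IL-1β and 0.07 with LPS, against 0.01 over all genes in either comparison. Both comparisons use the same 4 control libraries. LPS set directly against IL-1β called 4 of 10 members, with Cryab, Hsp90aa1 and Hsph1 higher and Hspe1 lower, where 21.9% of all genes were called, 11.3% higher and 10.6% lower. In that comparison the libraries of 3 members did not overlap (21.6% of all genes). Scaling by library size alone put the share of higher calls over all genes at 64.1% in place of 51.7% with IL-1β and at 63.4% in place of 53.0% with LPS, and no member changed direction with it.

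**Figure D1:**
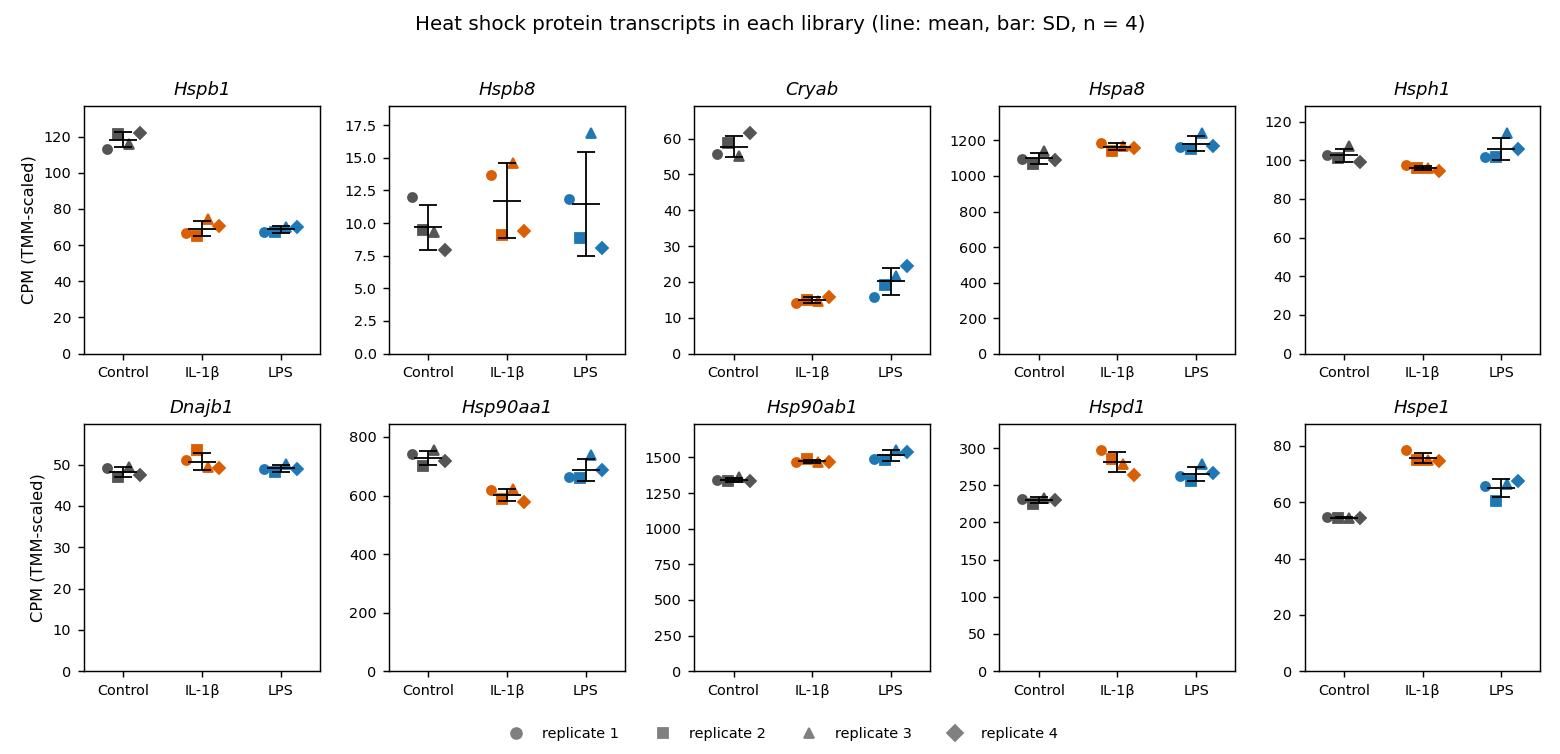
Level of each of the 10 heat shock protein genes in CPM (y axis, from 0, TMM-scaled) in the 4 control, 4 IL-1β and 4 LPS libraries (x axis). Symbols mark replicate numbers, the line is the mean and the bar the SD. Hspb1 and Cryab lie far below control in all 8 treated libraries, Hspd1 and Hspe1 lie above it, and Hspb8 is higher in replicates 1 and 3 than in replicates 2 and 4 of both treatments.

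**Figure D2:**
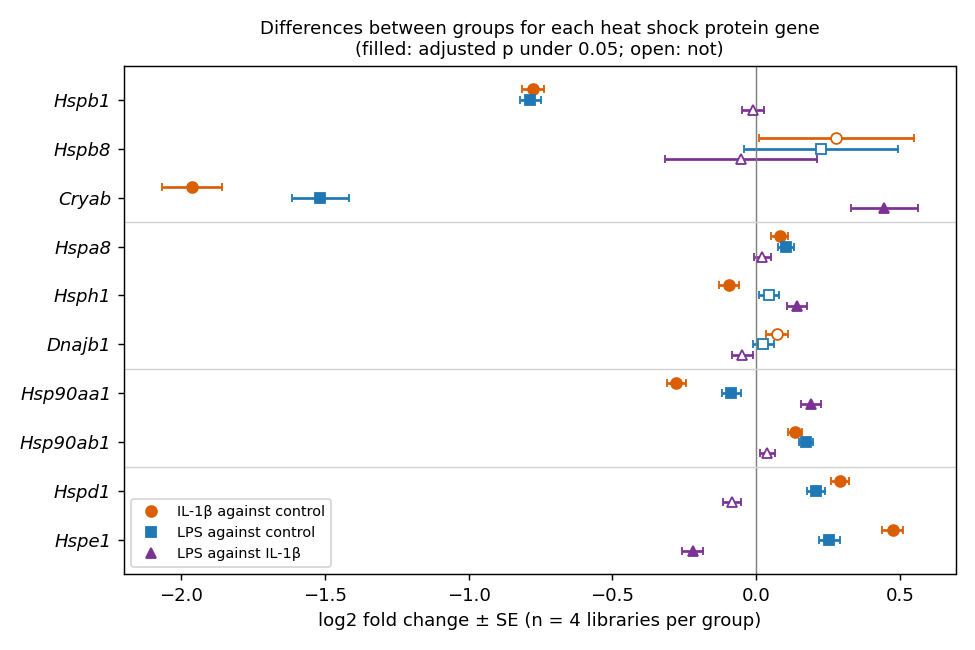
Log2 fold change (x axis) with its SE for each member (y axis, grouped by role) in the 3 comparisons, each with 4 libraries per group. Filled symbols have an adjusted p under 0.05. The small heat shock proteins Hspb1 and Cryab lie furthest to the left, and the mitochondrial pair and Hsp90ab1 lie to the right of 0 in both comparisons with control.

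Among the small heat shock proteins, Cryab and Hspb1 fell with both treatments and Hspb8 did not pass the test. Cryab, αB-crystallin, a chaperone abundant in lens and muscle that binds desmin and actin filaments, stood at 55.6, 58.8, 55.1 and 61.6 CPM in control replicates 1 to 4. With IL-1β the values were 14.0, 15.0, 14.6 and 15.9 CPM, and with LPS they were 15.7, 19.1, 21.6 and 24.4 CPM. Every treated library lay below every control library. The fitted level was 0.257 times control with IL-1β (log2 fold change -1.96 ± 0.11, where ± after a log2 value is the SE; adjusted p = 9.8e-09) and 0.35 times with LPS (-1.52 ± 0.10, adjusted p = 8.92e-08). Cryab was higher with LPS than with IL-1β by 0.45 ± 0.12 (adjusted p = 0.0176), although the lowest LPS library lay within the IL-1β range. That call was lost without IL-1β replicate 1 (0.42, adjusted p = 0.0502), without LPS replicate 3 (0.41, adjusted p = 0.063) and without LPS replicates 3 and 4 together, when the difference was 0.23 (adjusted p = 0.0513).

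Hspb1, the rat HSP25 or HSP27, which protects actin filaments and becomes phosphorylated downstream of the p38 kinase, was at 113, 121, 116 and 122 CPM in control libraries. It was at 66.6, 64.9, 74.2 and 70.5 CPM with IL-1β and at 67.1, 66.9, 70.2 and 70.3 CPM with LPS. The treated groups overlapped each other and lay clear of the controls. The log2 fold change was -0.78 ± 0.04 with IL-1β (adjusted p = 4.88e-16) and -0.79 ± 0.04 with LPS (adjusted p = 3.86e-16), and LPS differed from IL-1β by -0.01 ± 0.04 (adjusted p = 0.898).

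Hspb8, or HSP22, which works with the cochaperone Bag3 in clearing damaged proteins by autophagy, had the widest spread of the members. Its levels were 12.02, 9.45, 9.32 and 7.90 CPM in control replicates 1 to 4, 13.7, 9.09, 14.6 and 9.36 CPM with IL-1β and 11.8, 8.89, 16.9 and 8.12 CPM with LPS. Replicates 1 and 3 were the 2 highest libraries of both treated groups, and all 3 groups overlapped. The SD of log2 levels within groups was 0.36 for Hspb8, against 0.02 to 0.17 for the other 9 members and a median of 0.09 over all genes tested. Neither treatment passed the test, at 0.28 ± 0.27 with IL-1β (adjusted p = 0.44) and 0.23 ± 0.27 with LPS (adjusted p = 0.548). Without LPS replicate 3 the value with LPS was -0.02.

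The other small heat shock proteins that could be tested moved the way of Cryab and Hspb1. Of 9 genes in the family list 6 were tested, the 3 members and Hspb2, Hspb6 and Hspb7. The 3 that are not members fell with both treatments, with a median of -1.40 with IL-1β and -1.09 with LPS. Of all genes tested, 23.0% were called lower with IL-1β and 20.0% with LPS. Over all 6, members included, 5 fell and 0 rose with either treatment, with medians of -1.09 and -0.94. Hspb7, a chaperone of heart and skeletal muscle, went from 3.20 to 3.93 CPM in control to 0.622 to 1.07 with IL-1β (-2.09 ± 0.18) and 0.741 to 1.33 with LPS (-1.87 ± 0.17). Hspb2, the muscle chaperone that binds the myotonic dystrophy kinase, went from 11.2 to 13.6 CPM to 4.03 to 5.17 (-1.40 ± 0.09) and 5.14 to 6.65 (-1.09 ± 0.09). Hspb6, known as HSP20 and as a partner of smooth muscle relaxation, went from 9.77 to 12.4 CPM to 5.63 to 7.91 (-0.76 ± 0.10) and 6.11 to 7.49 (-0.72 ± 0.09). Hspb2 and Cryab are neighbours that overlap in the RefSeq annotation of GRCr8, and since the use of strand in counting is not given in the sources used here, reads of the overlap could stand in either row. The other 3 of the family did not pass the filter: Hspb3 had 0 to 2 counts per library, Cryaa 0 to 3 and Hspb9 3 to 11.

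Most markers of smooth muscle and pericytes moved beside these chaperones. Of 14 markers 12 fell and 1 rose with IL-1β (median -1.40), and 13 fell and 0 rose with LPS (median -1.17). Of all genes tested, 23.0% were called lower with IL-1β and 20.0% with LPS. The marker that rose was Des, or desmin, from 67.5 to 70.4 CPM in control to 80.6 to 88.9 with IL-1β (0.30 ± 0.05, adjusted p = 8.14e-05). It was not called with LPS (-0.12 ± 0.05, adjusted p = 0.0701). The summed level of the 14 was 7557 to 8015 CPM in control, 2816 to 3179 with IL-1β and 3276 to 3807 with LPS. None of the 14 was at 0 throughout a group. Their part in the lower small heat shock protein levels was not tested, and in RNA from whole cultures fewer cells of a type and less RNA per cell cannot be told apart.

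In the HSP70 system the member changes were small. Hspa8, the constitutive HSP70 of the cytosol, was at 1098, 1069.9, 1141 and 1091 CPM in control, 1188, 1142, 1168 and 1156 CPM with IL-1β and 1166, 1151, 1243 and 1166 CPM with LPS. All treated libraries were above all controls, although the lowest IL-1β library (1142 CPM) stood next to the highest control (1141 CPM). Hspa8 rose by 0.08 ± 0.03 with IL-1β (adjusted p = 0.0197) and by 0.10 ± 0.03 with LPS (adjusted p = 0.00407). The IL-1β call was lost without control replicate 2 (0.07, adjusted p = 0.0815) and without IL-1β replicate 1 (0.07, adjusted p = 0.0669), and the LPS call without LPS replicates 3 and 4 together (0.08, adjusted p = 0.0534). The rows of the pseudogenes Hspa8-ps23 and Hspa8-ps25 held 103% and 126% of the Hspa8 total, so reads may be shared between these rows, which was not tested, and the level of Hspa8 itself is uncertain. With both rows added to it, the values were 0.08 ± 0.03 and 0.10 ± 0.03. This sum counts any shared read more than once, so it is no independent check of Hspa8.

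Hsph1, the HSP110 that exchanges nucleotide on HSP70 and helps to pull aggregates apart, was at 103, 101, 107 and 99.2 CPM in control and at 97.3, 95.9, 95.8 and 94.6 CPM with IL-1β. With LPS it was at 102, 102, 114 and 106 CPM. Every IL-1β library was below every control and every LPS library, while LPS and control overlapped. Hsph1 fell by 0.09 ± 0.03 on the log2 scale with IL-1β (adjusted p = 0.0273), a call lost in 6 of 24 alternatives: without control replicates 1 or 3, without IL-1β replicates 2, 3 or 4 (adjusted p = 0.0517 to 0.106 over these 5) and with library size alone (-0.04, adjusted p = 0.297). With LPS it stood at 0.05 ± 0.03 (adjusted p = 0.302), which library size alone called at 0.09 (adjusted p = 0.0411). It was higher with LPS than with IL-1β by 0.14 ± 0.03 (adjusted p = 0.00408), a difference of 0.08 (adjusted p = 0.14) without LPS replicates 3 and 4.

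Dnajb1, or HSP40, the J-domain protein that brings clients to HSP70 and is known as a target of HSF1, was at 49.1, 47.1, 49.4 and 47.4 CPM in control, 51.1, 53.4, 49.3 and 49.1 CPM with IL-1β and 49.0, 48.2, 50.2 and 48.8 CPM with LPS. The 3 groups overlapped. It stood at 0.07 ± 0.04 with IL-1β (adjusted p = 0.116), which library size alone called at 0.12 (adjusted p = 0.00826), and at 0.03 ± 0.04 with LPS (adjusted p = 0.629).

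The stress-inducible HSP70 genes were lower in treated cultures. Hspa1a, known for its strong induction by heat, was at 26.7 to 29.0 CPM in control, 21.3 to 22.7 with IL-1β and 15.7 to 18.1 with LPS, and its near copy Hspa1b at 29.1 to 31.2, 23.0 to 24.1 and 17.1 to 19.5 CPM. The 3 groups of each gene did not overlap. Hspa1a fell by 0.34 ± 0.05 with IL-1β and by 0.71 ± 0.05 with LPS, and LPS differed from IL-1β by -0.36 ± 0.06 (adjusted p = 2.16e-05). Hspa1b had values of -0.35 ± 0.05, -0.70 ± 0.05 and -0.35 ± 0.05. The rows of this pair were correlated at 0.998 over the 12 libraries, so reads may be shared between them.

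**Figure D3:**
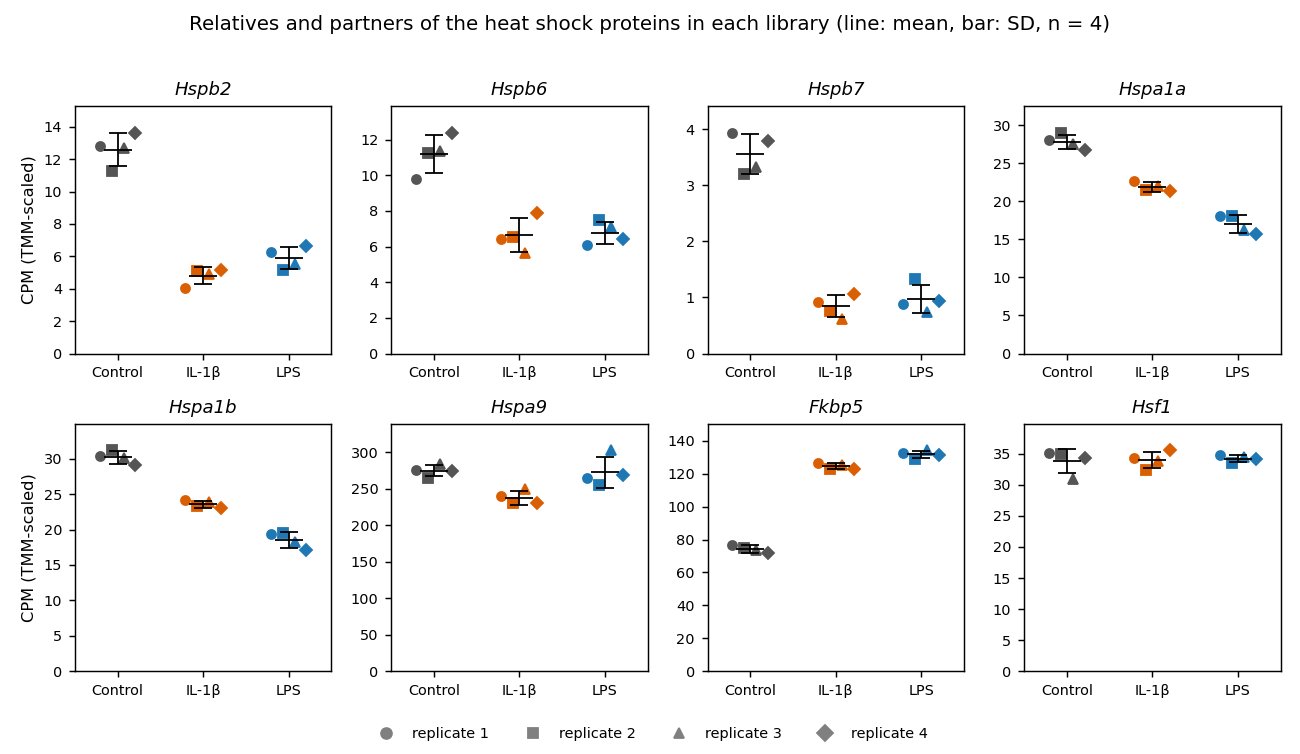
Level in CPM (y axis, from 0) of 8 relatives and partners in the 4 libraries of each group (x axis), with the mean as a line and the SD as a bar. Hspb2, Hspb6 and Hspb7 lie below control in all treated libraries, Hspa1a and Hspa1b fall from control to IL-1β to LPS, Fkbp5 lies above control, and Hsf1 overlaps between groups.

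Over the cytosolic HSP70 and HSP110 genes other than Hspa8 and Hsph1, 3 of 9 rose and 5 fell with IL-1β, and 4 rose and 4 fell with LPS. For all lists in this paragraph, the shares over all genes tested were 24.7% higher and 23.0% lower with IL-1β. With LPS they were 22.5% and 20.0%. Hspa12a rose by 0.78 ± 0.07 and 0.71 ± 0.07, and Hspa12b, a divergent HSP70 known from endothelial cells, by 0.62 ± 0.08 and 0.27 ± 0.08. Beside Hspa12b, 9 of 9 endothelial markers rose with IL-1β and 8 of 9 with LPS, and their part in it was not tested. Hspa2, the HSP70 of germ cells, was the lowest, at -0.47 ± 0.09 and -0.76 ± 0.10. Of the 17 J-domain proteins other than Dnajb1, 1 rose and 5 fell with IL-1β (median -0.05), and 3 rose and 4 fell with LPS (median 0.01). Dnajb4 fell with both (-0.40 ± 0.04 and -0.19 ± 0.04) and Dnajb5 rose with both (0.15 ± 0.05 and 0.19 ± 0.05), while Dnajc2, which sits on ribosomes, rose with LPS (0.27 ± 0.04). Of 11 exchange factors and cochaperones of HSP70, 1 rose and 5 fell with IL-1β, and 2 rose and 1 fell with LPS. Bag2, an inhibitor of the ubiquitin ligase Chip, was lowest at -0.71 ± 0.05 and -0.56 ± 0.05, Bag6 rose by 0.14 ± 0.03 and 0.09 ± 0.03, and Stip1, which hands clients from HSP70 to HSP90, rose with LPS by 0.11 ± 0.03. Bag3, the partner of Hspb8, changed by -0.09 ± 0.04 with IL-1β (adjusted p = 0.0292) and stood at -0.02 ± 0.04 with LPS (adjusted p = 0.654).

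The cytosolic HSP90 paralogs went apart, Hsp90aa1 down and Hsp90ab1 up. Hsp90aa1, the stress-inducible paralog, was at 742, 702, 754 and 717 CPM in control, 618, 589, 621 and 578 CPM with IL-1β and 662, 661, 738 and 686 CPM with LPS. The IL-1β libraries were below all others, and LPS overlapped control. It fell by 0.28 ± 0.03 with IL-1β (adjusted p = 2.02e-07). With LPS the fall was 0.09 ± 0.03 (adjusted p = 0.0462), and LPS lay above IL-1β by 0.19 ± 0.03 (adjusted p = 2.04e-04). The LPS call was lost in 10 of 24 alternatives: without control replicates 1, 3 or 4, IL-1β replicates 1 or 2, or LPS replicates 1, 2 or 4, with library size alone (-0.05, adjusted p = 0.273) and with the rows of its copies added. Without LPS replicates 3 and 4 together it was -0.14 (adjusted p = 0.0014). A row named only by a locus number held the same counts as Hsp90aa1 to within 4 reads in every library, and the pseudogene rows Hsp90aa1-ps16 and Hsp90aa1-ps17 held 70.4% and 54.5% of its total, so reads may be shared here too and its level is uncertain. With these rows added the values were -0.28 ± 0.04 with IL-1β and -0.08 ± 0.04 with LPS (adjusted p = 0.0708). This sum repeats the counts of the locus row and any other shared reads, so it is no independent check of Hsp90aa1.

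Hsp90ab1, the constitutive paralog, was at 1341, 1333, 1361 and 1335 CPM in control, 1469, 1490.5, 1471 and 1466 CPM with IL-1β and 1487, 1480, 1550.2 and 1541 CPM with LPS. No treated library reached down to the controls. It rose by 0.14 ± 0.03 with IL-1β (adjusted p = 5.86e-05) and by 0.17 ± 0.03 with LPS (adjusted p = 1.89e-06), with a difference between treatments of 0.04 ± 0.03 (adjusted p = 0.297). A pseudogene row held 2.61% of its total.

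Of the 17 HSP90 cochaperones, 4 rose and 2 fell with IL-1β (median -0.03), and 8 rose and 1 fell with LPS (median 0.07). Over all genes tested 24.7% rose and 23.0% fell with IL-1β, and 22.5% and 20.0% with LPS. Fkbp5, the immunophilin of steroid receptor complexes that is known as a target of the glucocorticoid and androgen receptors, rose from 71.7 to 76.8 CPM in control to 123 to 127 with IL-1β (0.75 ± 0.03) and 129 to 134 with LPS (0.83 ± 0.03). Its relative Fkbp4 rose by 0.29 ± 0.03 and 0.27 ± 0.03, and Fkbp8, anchored in the outer mitochondrial membrane, by 0.32 ± 0.03 and 0.15 ± 0.03. Unc45a, a myosin chaperone, fell by 0.19 ± 0.03 and 0.10 ± 0.03 on the log2 scale, and Ptges3, the p23 cochaperone, fell with IL-1β (-0.12 ± 0.03).

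The mitochondrial chaperonin genes rose with both treatments. Hspd1, or HSP60, which forms the barrel, was at 232, 225, 234 and 229.8 CPM in control, 297, 285, 279 and 264 CPM with IL-1β and 263, 256, 278 and 266 CPM with LPS. All 8 treated libraries were above all controls, and the treatments overlapped each other. Hspd1 rose by 0.29 ± 0.03 with IL-1β (adjusted p = 1.35e-08) and by 0.21 ± 0.03 with LPS (adjusted p = 5.08e-06). LPS differed from IL-1β by -0.08 ± 0.03 (adjusted p = 0.0626), called in 8 of 24 alternatives, among them without IL-1β replicate 4 (-0.11) and without LPS replicate 3 (-0.11). The row of the pseudogene Hspd1-ps3 held 21.3% of the Hspd1 total and had log2 fold changes of 0.29 ± 0.04 and 0.25 ± 0.04.

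Hspe1, or HSP10, the lid of the barrel, whose gene shares the 30 bases shown above with Hspd1, was at 54.7, 54.5, 54.4 and 54.5 CPM in control. It was at 78.4, 74.9, 75.1 and 74.8 CPM with IL-1β and at 65.9, 60.4, 66.6 and 67.5 CPM with LPS. The 3 groups did not overlap, in the order control, LPS, IL-1β. Hspe1 rose by 0.48 ± 0.04 with IL-1β (adjusted p = 7.5e-12) and by 0.25 ± 0.04 with LPS (adjusted p = 1.43e-06), and LPS differed from IL-1β by -0.22 ± 0.04 (adjusted p = 3.85e-05).

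The other mitochondrial chaperones and proteases rose in 3 of 14 and fell in 2 with IL-1β (median -0.02), and rose in 3 and fell in 0 with LPS (median 0.04). The shares over all genes tested were 24.7% higher and 23.0% lower with IL-1β, and 22.5% and 20.0% with LPS. Hspa9, or mortalin, the mitochondrial HSP70 that draws proteins into the matrix, was at 265 to 285 CPM in control, 230.3 to 249.5 with IL-1β and 255 to 303 with LPS. It fell with IL-1β (-0.21 ± 0.04, adjusted p = 5.54e-04), stood at -0.01 ± 0.04 with LPS (adjusted p = 0.847), and was higher with LPS than with IL-1β (0.20 ± 0.04, adjusted p = 0.00289). Its exchange factor Grpel2 fell with IL-1β too (-0.19 ± 0.05). Trap1, the mitochondrial HSP90, rose with both treatments (0.15 ± 0.03 and 0.09 ± 0.03), as did the protease Htra2 (0.19 ± 0.06 and 0.17 ± 0.06). Yme1l1, a protease of the inner membrane, rose with LPS (0.09 ± 0.03) and stood at -0.02 ± 0.03 with IL-1β (adjusted p = 0.489).

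The CCT chaperonin of the cytosol, which folds actin and tubulin, and prefoldin, which delivers them, had 0 of 14 genes higher and 2 lower with IL-1β (median -0.01), and 7 higher and 2 lower with LPS (median 0.08). Tcp1, the alpha subunit, was lowest in both (-0.44 ± 0.03 and -0.32 ± 0.03), followed by Pfdn1 (-0.21 ± 0.04 and -0.17 ± 0.04). Cct4 (0.16 ± 0.03) and Pfdn6 (0.14 ± 0.06) were the highest with LPS. LPS was directly above IL-1β in 6 of the 14 and below it in 1, beside 11.3% and 10.6% of all genes tested. Among the partners of Bag3 and chaperone-assisted autophagy other than the members, 0 of 10 rose and 7 fell with IL-1β, and 1 rose and 5 fell with LPS. For both lists, 24.7% of all genes tested were higher and 23.0% lower with IL-1β, and 22.5% and 20.0% with LPS. Synpo2, which links Bag3 to actin bundles and is also in the smooth muscle list, was the lowest at -1.20 ± 0.10 and -1.01 ± 0.10, and Synpo rose with LPS (0.08 ± 0.03).

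Transcripts of the heat shock factors themselves did not pass the test against control. Hsf1, the main activator of the heat shock response, was at 31.0 to 35.1 CPM in control, 32.5 to 35.6 with IL-1β and 33.5 to 34.7 with LPS, with log2 fold changes of 0.01 ± 0.05 (adjusted p = 0.928) and 0.01 ± 0.04 (adjusted p = 0.845). Hsf2 stood at -0.10 ± 0.05 (adjusted p = 0.0866) and 0.07 ± 0.04 (adjusted p = 0.192), and was higher with LPS than with IL-1β (0.17 ± 0.05, adjusted p = 0.00731). The unadjusted p of Hsf2 with IL-1β was 0.0453, and Hsf4, Hsf2bp and Hsbp1 stood between -0.28 and 0.12 with adjusted p of 0.435 or above. The 15 further genes known as heat shock factor targets divided, with 1 higher and 6 lower with IL-1β (median -0.05) and 6 higher and 4 lower with LPS (median 0.03). Beside them, 24.7% of all genes tested were higher and 23.0% lower with IL-1β, and 22.5% and 20.0% with LPS. Serpinh1, the collagen chaperone HSP47, was among the lowest with IL-1β (-0.44 ± 0.03), and Hspa4l was the highest with LPS (0.27 ± 0.09).

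Of the 4 members with a 13-base element in the window, Hspd1, Hspe1 and Hspa8 were higher with both treatments, while Hsph1 was lower with IL-1β, in the call given above as lost in 6 of 24 alternatives, and was not called with LPS. Of the 4 members whose window had no such element, Hsp90ab1 was higher and Hspb1 lower with both treatments, and Hspb8 and Dnajb1 were not called. In the chaperone lists 8 tested genes had such an element: the 4 members, Dnaja1, Chordc1, Cct4 and Serpinh1. With IL-1β 3 of the 8 rose and 2 fell, beside 13 higher and 36 lower of the 98 tested list genes with a window. With LPS 6 of the 8 rose and 1 fell, beside 28 higher and 28 lower of the 98. The 8 are part of the 98, and Hspd1 and Hspe1 among them share 1 element, so they do not count it separately. Of all 55 tested genes with the element, 19 rose and 12 fell with IL-1β, or 56.4%, beside 50.5% of the 10739 tested genes that had a window. With LPS 15 rose and 11 fell, or 47.3%, beside 45.1%. Their median log2 fold changes were 0.06 and 0.04. A motif match describes the bases only and does not show binding. The search took exact matches in 1 window per gene. It found no motif of either length in the window of Hspa1a, which is known for its strong induction by heat. A window without a match is thus not shown to lack an element.

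Chaperones of the endoplasmic reticulum, a separate compartment, fell in 13 of 15 and rose in 0 with IL-1β (median -0.19), and fell in 14 and rose in 1 with LPS (median -0.23). Over all genes tested 23.0% fell with IL-1β and 20.0% with LPS. Hspa5, or BiP, the HSP70 of that compartment, had values of -0.27 ± 0.03 and -0.29 ± 0.03, Serpinh1 of -0.44 ± 0.03 in both, and Sdf2l1 of -0.33 ± 0.08 and -0.30 ± 0.08. The only gene higher with LPS was the J-domain protein Dnajb9 (0.12 ± 0.05, adjusted p = 0.0471). Over all chaperone lists without the 10 members and without this compartment, 12 of 97 genes rose and 28 fell with IL-1β, 41.2% in all beside 47.7% of all genes tested, and 27 rose and 19 fell with LPS, 47.4% in all beside 42.5%. LPS was directly above IL-1β in 28 of the 97 and below it in 6, or 35.1% in all. Of all genes tested 21.9% were called in that comparison, 11.3% higher and 10.6% lower.

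**Figure D4:**
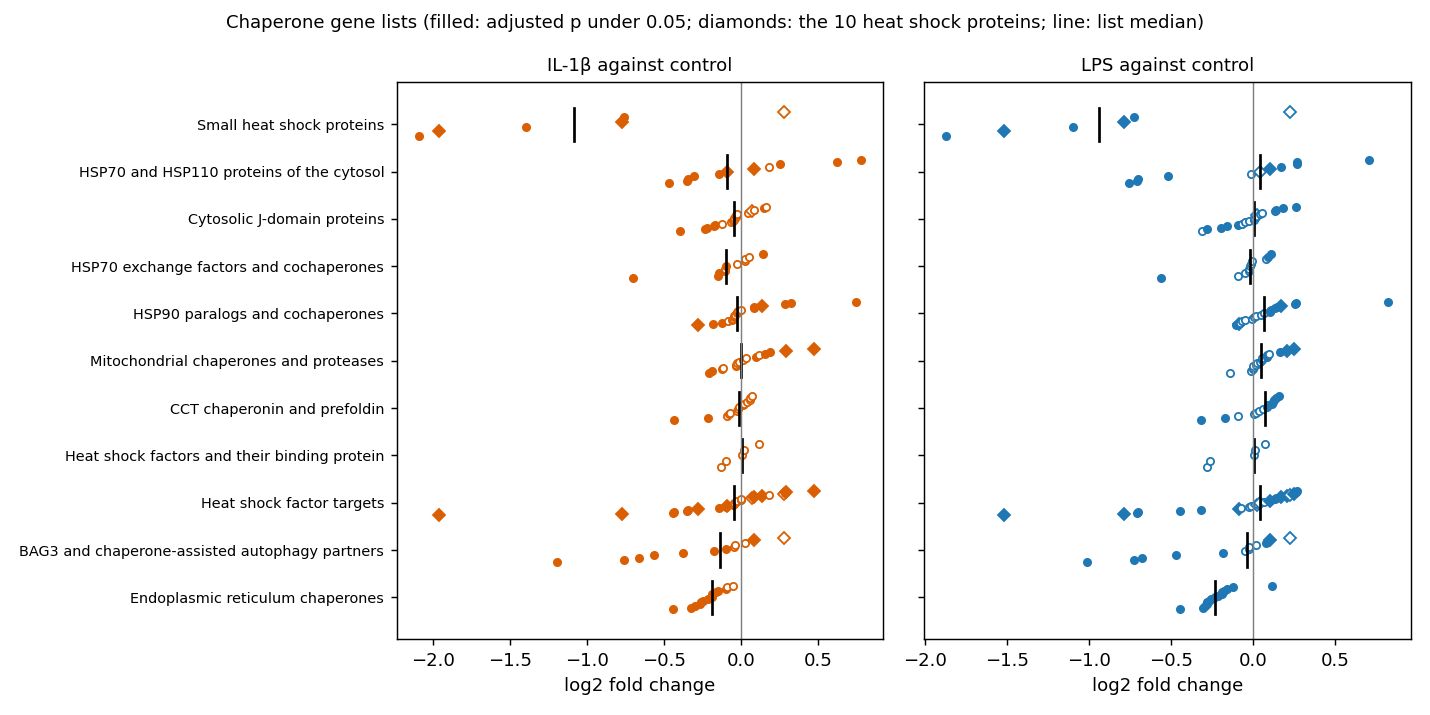
Log2 fold change (x axis) of each tested gene in 11 chaperone gene lists (y axis) with IL-1β (left) and LPS (right), with diamonds for the 10 heat shock proteins, filled symbols for an adjusted p under 0.05 and a black line at the median of each list. Small heat shock proteins lie furthest to the left, endoplasmic reticulum chaperones lie mostly left of 0, and the other lists lie on both sides of 0. A gene in several lists appears in each.

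Genes whose log2 CPM ran most like that of a member over the 12 libraries were listed for the member of each role with the highest mean level, among 9265 other genes of at least 10 CPM. Placeholder symbols, such as those made of a locus number, were left out. This removed the pseudogene rows of Hspa8 and Hsp90ab1. The libraries fall into 3 groups, so these correlations mostly describe the order of the groups. For Hspb1 they were Tinagl1 (Pearson r = 0.997), Akap13 (0.994) and Gpnmb (0.994), for Hspa8 Aff2 (0.950), Anxa2 (0.940) and Ppp2ca (0.940), for Hsp90ab1 Akr1c14 (0.986), Stxbp6 (0.983) and Usp3 (0.982), and for Hspd1 Plin3 (0.985), Msmo1 (0.975) and Gja1 (0.969).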

How the data were processed

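RNA of 12 cultures was sequenced from stranded mRNA libraries on an Illumina HiSeq, per the labels' protocols. The authors deposited raw read counts per gene symbol, 1 column per library. The submitters' processing notes name the build Rnor_6.0 and the tools TopHat2 (2.1.1), SAMtools and DESeq2. The counting program, its annotation, its use of strand and its handling of reads shared between copies are not given in the sources used here.

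Counts were tested in R 4.3.3 with edgeR 4.0.16: filterByExpr (17330 genes kept), TMM factors from 0.976 to 1.02, 1 fit of the 3 groups over all 12 libraries (glmQLFit, robust) and quasi-likelihood F-tests, adjusted by Benjamini-Hochberg over all genes. Calls needed an adjusted p under 0.05 and no minimum fold. The SE is the absolute log2 fold change divided by the square root of F. Total counts of 20873934 to 32090924 per library set the precision. In 1 simulated set of 17031 genes, the fitting steps recovered 70% of 50 genes changed 1.25-fold, 96% at 1.5-fold and 100% at 2-fold. That set had 19 false calls, beside 35, 48, 50 and 50 genes recovered at 1.25-, 1.5-, 2- and 4-fold. All changed genes had a mean count of at least 50. They were a far smaller part of the set than the 47.7% of genes called with IL-1β, so these rates may not hold for the data. Changes below 1.25-fold, such as that of Hspa8, were not simulated.

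The members, gene lists and tests were chosen with earlier results of these data known. Named genes were the 10 members, 7 others whatever their values (Hsf1, Hsf2, Hspa1a, Hspa1b, Bag3, Hspa9, Hspa5), among the 2 highest and 2 lowest called non-members of each list in either comparison with control, and the 3 most alike genes per role. Values of Hspb2, Hspb6 and Hspb7, of the 5 heat shock factor genes, of Cyp17a1 and of copies were added after they were seen. Lists are described by counts and medians, without a set test. Copies of a member were rows that RefSeq names as its pseudogenes, or rows within 0.1% of its count in every library. Alternatives were other scalings and filters, DESeq2 1.42.0, limma-voom (limma 3.58.1), fits on 8 libraries, a replicate block and each library left out. Adding the rows of copies and leaving out LPS replicates 3 and 4 were chosen after seeing the data.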

Additional observations from a re-analysis of the deposited data

Results flagged for a closer look

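In 2 of 30 groups of 4 libraries (10 members in 3 groups), 1 library lay further from the other 3 than Dixon's 95% limit allows, where chance alone gives about 1 in 20. Hspa8 was at 1243 CPM in LPS replicate 3, against 1151 to 1166 in the other LPS libraries. Hspe1 was at 78.4 CPM in IL-1β replicate 1, against 74.8 to 75.1 in the other IL-1β libraries. Without LPS replicate 3 Hspa8 stayed called against control with LPS, and without IL-1β replicate 1 Hspe1 stayed called with IL-1β.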

How the results depend on the processing

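Over 24 alternatives for each of the 30 member values, 676 of 720 kept their direction and their side of the threshold, 23 lost a call, 10 gained a call and 11 changed sign, all 11 in values that were not called. The number of members called was 7 to 8 with IL-1β when each library was left out in turn (8 in all), 6 to 7 with LPS (7 in all) and 3 to 5 for LPS against IL-1β (4 in all). Values that changed sign with a library left out ranged from -0.017 (without LPS replicate 3) to 0.363 for Hspb8 with LPS, and for LPS against IL-1β from -0.296 to 0.0818 for Hspb8, from -0.0382 to 0.0274 for Hspb1 and from -0.00304 (without LPS replicate 3) to 0.0346 for Hspa8. For LPS against IL-1β, Hspb8 was above 0 without IL-1β replicates 1 or 3 or LPS replicates 2 or 4, and Hspb1 without IL-1β replicate 3 or LPS replicates 1 or 2. Without LPS replicates 3 and 4 together, Hsph1 with LPS (-0.00957) and Hspa8 for LPS against IL-1β (-0.00638) changed sign. Deviations of same-numbered libraries were weakly correlated, with r of -0.00765 to 0.162 (median 0.0376) over 12 pairs, 11 of them above 0 but 2 over 0.1, beside -0.117 to 0.0737 (median -0.0233) over 36 pairs with different numbers. A library correlated best with its own number in 14 of 24 comparisons with the 4 libraries of another group. That is more often than the 1 in 4 of a random pick, but each pair enters from both of its libraries. Deviations from a group mean also tie the libraries of that group to each other. The 24 comparisons are thus not independent. The labels state no pairing and the main fit used none, and whether same-numbered cultures share an origin was not tested. With a replicate block 8, 7 and 5 members were called, with Hspd1 newly lower with LPS than with IL-1β (-0.08), and the genes called were 8544, 7730 and 4256 in place of 8261, 7358 and 3791. The cause of these changes was not tested. What could be called differed by member, with an SE of 0.03 for Hspa8 and of 0.27 for Hspb8 in the comparisons with control.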

Other observations

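The deviations of Hspb8 from its group means were set beside those of other genes after its values were seen. Among 9266 genes of at least 10 CPM, those of Riok3 (Pearson r = 0.958 over 12 libraries), Dph1 (0.947) and Txndc9 (0.938) ran most like it. Placeholder symbols were left out here too. Values of 1 library share its depth and scaling, and the correlations are a description only. What sets replicates 1 and 3 of the treated groups apart from replicates 2 and 4 in Hspb8 was not tested.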
